A study of Homo sapiens with 6 samples.

Results

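Ribosome biogenesis factors are the proteins that transcribe, modify, cleave and fold ribosomal RNA and assemble it with ribosomal proteins. The set described here holds 44 genes chosen by name for this work, and all 44 stood among the 28862 genes of the deposited count table. All 44 also passed the filter on low counts, among 15829 genes tested. They were measured in messenger RNA of SH-SY5Y, an established human neuroblastoma line. The series compared 3 libraries labelled SMN1 overexpression with 3 libraries of the same line carrying a control plasmid. Separate cultures are not recorded in the labels, so p-values reflect library-to-library spread alone, and that spread may be technical.

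SMN1 encodes the survival motor neuron protein, which helps to assemble small nuclear ribonucleoproteins. SMN1 itself had 14.8, 16.6 and 16.6 CPM (read counts scaled to library size) in the libraries labelled SMN1 overexpression, against 20.04, 20.4 and 19.6 CPM in the control plasmid libraries. The libraries labelled SMN1 overexpression were the lower ones, without overlap (log2 fold change -0.32, SE 0.06, adjusted p = 9.40e-05). Its near-identical copy SMN2, which can share reads with it, was also lower (log2 fold change -0.30, adjusted p = 0.00310). The SMN1 and SMN2 rows therefore did not show the rise that the label names, and those libraries are called SMN1-labelled below. No rule for multiply mapped reads is given, so these rows may not count reads of a plasmid SMN1, which was not tested. Every direction given here is that of the SMN1-labelled over the control plasmid libraries as labelled. Were the labels exchanged, each direction and each share of higher and lower genes would turn round; whether they were was not tested.

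Ribosome synthesis begins in the nucleolus, where RNA polymerase I copies the ribosomal RNA genes into a long precursor. Small nucleolar ribonucleoproteins (snoRNPs) then modify the precursor: those of the box C/D class add methyl groups to ribose, and those of the box H/ACA class convert uridine to pseudouridine. A large assembly called the small subunit processome folds and cuts the part that becomes the 40S subunit, and separate factors build the 60S subunit. In neuroblastoma the pathway is known as a target of the MYC family, whose members bind DNA with MAX at the E-box.

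The set was divided in the SMN1-labelled libraries: 12 members were higher, 21 were lower and 11 did not pass the test. The genes of both snoRNP classes were lower in 7 of 7 cases, led by NOP56 at 1.47-fold lower. The RNA helicase DDX21 was 1.37-fold higher and the processome scaffold HEATR1 1.29-fold higher. The 60S factors MRTO4, LAS1L and GNL2 were lower, while RRP1B and NIP7 of the same subunit were higher. Calls were made at an adjusted p of at most 0.05 with edgeR's quasi-likelihood test and Benjamini-Hochberg adjustment over all genes tested.

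These counts stand against a transcriptome in which 56.2% of all genes tested were called. Of all genes tested, 28.0% were called higher and 28.2% lower, whereas the members' shares were 27.3% higher and 47.7% lower. The share of members called higher was thus near that of all genes, and the share called lower was above it. The members were also more abundant than most genes, with a median control level of 137 CPM, against 10.6 CPM for all genes tested. The median log2 fold change was -0.07 over the members and 0.00 over all genes tested. The 2 groups of libraries did not overlap for 36 of the 44 members, of which 12 lay above and 24 below the control plasmid libraries. Of all genes tested, 60.7% did not overlap, 30.4% with the SMN1-labelled libraries above and 30.2% with them below.

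The changes were small. No member was called with a change of 1.5-fold or more in edgeR, DESeq2 or limma, whereas 12.1% of all genes tested were. After the correction for length and GC content described below, 1 member passed that size (PPAN). The median fold of the called members was 1.20, against 1.30 for all called genes. The members held 1.61% to 1.63% of the reads in the SMN1-labelled libraries and 1.604% to 1.64% in the control plasmid libraries, so their summed share of reads overlapped. After scaling to library composition (TMM) their CPM summed to 15752, 15685 and 15703 in SMN1-labelled libraries, against 16528, 16443 and 17182 in control plasmid libraries, which did not overlap. Over all genes tested the CPM summed to 974726, 967535 and 964882 in SMN1-labelled libraries, against 1025560, 1024090 and 1046350 in control plasmid libraries. Those sums did not overlap either, so the gap was not particular to the members. In a bulk sample fewer cells of a type and less RNA per cell cannot be told apart. Within groups the spread was low: the coefficient of variation of a member had a median of 2.33% in SMN1-labelled libraries and 3.07% in control plasmid libraries.

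**Figure D1:**
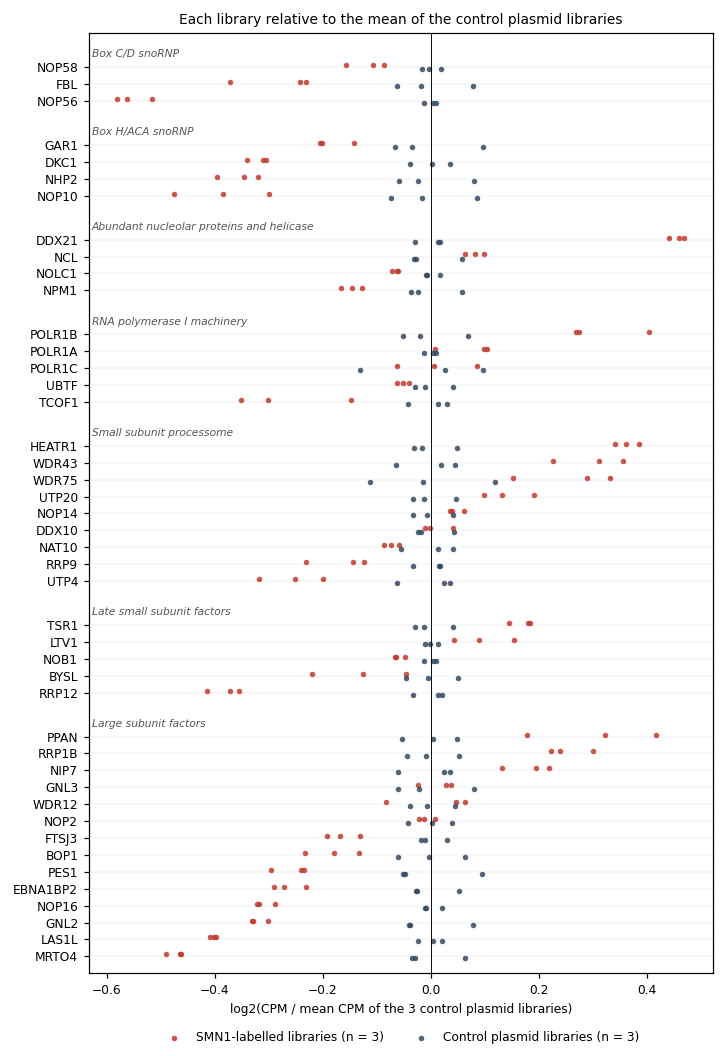
Level of each of the 44 members in each library, as log2 of its CPM over the mean CPM of the 3 control plasmid libraries, grouped by role. Red points are the 3 SMN1-labelled libraries and dark points the 3 control plasmid libraries. The 7 snoRNP genes lie to the left of zero in all SMN1-labelled libraries, while DDX21, HEATR1 and WDR43 lie to the right.

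The whole-series facts that touch these values are few. Libraries held 31740870 to 40275498 reads in the SMN1-labelled group and 30379242 to 31286361 reads in the control plasmid group. Of 9 tested markers of adrenergic neuroblastoma 4 were higher and 5 lower, with a summed level of 20690 to 21654 CPM in SMN1-labelled and 17939 to 18785 CPM in control plasmid libraries. Marker sums here are scaled to total reads alone, without TMM. Most of the adrenergic sum was CHGA, with 506612 to 625046 reads per SMN1-labelled and 409180 to 424805 reads per control plasmid library. TH, the defining enzyme of catecholamine synthesis, had at most 1 read per SMN1-labelled library and 3 to 9 reads per control plasmid library. Of 9 tested markers of mesenchymal or fibroblast-like cells none was higher and 6 were lower, with a sum of 783 to 845 CPM in SMN1-labelled and 1015 to 1076 CPM in control plasmid libraries. Most of that sum was TWIST1, with 17605 to 23046 reads per SMN1-labelled and 19830 to 21839 reads per control plasmid library. Epithelial markers summed to 8.91 to 9.42 CPM in SMN1-labelled and 19.6 to 20.9 CPM in control plasmid libraries, and immune markers stayed below 1 CPM in every library. The part of these cell type markers in the members' changes was not tested.

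Many members share an E-box near their start. RefSeq promoter windows on GRCh38.p14, from 250 bases before to 50 bases after the annotated start, could be matched to 38 of the 44 members. The letters CACGTG, which read the same on both strands, stood in the window of 18 of the 38 (47.4%). They stood in 12.5% of the 10995 matched genes tested, in 7.26% of all 35116 windows, and in 24.2% of 128 other ribosome biogenesis genes. A match is a description of letters, not a bound site. The windows shown are 30 bases around the E-box, in the direction of the gene, of 4 members called higher (the first 4) and 6 called lower (the rest). Capitals mark the E-box.

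DDX21 (chr10:68956604-68956633, plus strand): ggccgggtgtccCACGTGgtccccggcgac
WDR43 (chr2:28894658-28894687, plus strand): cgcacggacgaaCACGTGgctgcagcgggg
UTP20 (chr12:101280083-101280112, plus strand): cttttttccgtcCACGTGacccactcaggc
LTV1 (chr6:143843354-143843383, plus strand): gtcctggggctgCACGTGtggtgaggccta
MRTO4 (chr1:19251807-19251836, plus strand): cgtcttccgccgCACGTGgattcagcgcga
NOP10 (chr15:34343130-34343159, minus strand): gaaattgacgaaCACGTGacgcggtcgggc
GNL2 (chr1:37595917-37595946, minus strand): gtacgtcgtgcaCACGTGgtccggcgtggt
FBL (chr19:39846356-39846385, minus strand): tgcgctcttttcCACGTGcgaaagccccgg
PES1 (chr22:30591880-30591909, minus strand): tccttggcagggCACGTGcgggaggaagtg
UTP4 (chr16:69132621-69132650, plus strand): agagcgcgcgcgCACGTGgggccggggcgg

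The E-box shown began 31 bases before the start in DDX21, 11 before it in NOP10, and at base 4 of the transcript in WDR43 and GNL2. NOP10 had another E-box 170 bases before its start, which is not shown. Members with the E-box went both ways: of the 18, 4 were called higher, 10 were called lower and 4 were not called. Of all 38 matched members, 11 were called higher, 17 were called lower and 10 were not called. Other motifs were searched on both strands in the same windows. The ETS motif CCGGAAGT stood in 10 of the 38 members (26.3%) and in 9.71% of matched genes tested. The SP motif GGGCGG stood in 76.3% of members and 77.3% of matched genes tested, and the NF-Y motif CCAAT in 44.7% and 43.1%. The palindromic NRF1 motif stood in 3 members (7.89%), against 2.67% of matched genes tested. MYC had 65.5, 66.9 and 66.7 CPM in SMN1-labelled libraries, against 60.2, 59.1 and 60.8 CPM in control plasmid libraries (log2 fold change 0.15, adjusted p = 0.00225). Its relative MYCN had 11.5, 12.2 and 10.95 CPM in SMN1-labelled libraries, against 6.66, 7.40 and 7.996 CPM in control plasmid libraries (log2 fold change 0.66, adjusted p = 4.41e-07). After the length and GC correction MYC was at 0.34 and MYCN at 0.91. Both transcripts were higher in all 3 SMN1-labelled libraries; any part of either in the members' values was not tested.

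Fold changes across the set varied with base composition, as they did across the transcriptome. Across the 44 members the log2 fold change had a Spearman correlation of -0.43 with GC content, and across 15663 genes tested it was also -0.43. It was -0.65 across the 148 other ribosome biogenesis genes. These are correlations across genes that share the same 6 libraries, and genes are not independent replicates. With GC content split at 44.4% and 53.8%, the limits of equal groups of all genes, 6 of the 12 members with low GC were higher and 3 lower. Of the 17 in the middle, 5 were higher and 7 lower. Of the 15 with high GC, 1 was higher and 11 were lower. For all genes with low GC, 47.4% were higher and 11.6% lower. In the middle the shares of all genes were 27.4% higher and 27.4% lower. For all genes with high GC, 9.75% were higher and 46.0% lower.

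After each library was corrected for gene length and GC content, 13 members were called higher and 18 lower, beside 26.0% of all genes higher and 22.8% lower (48.8% called in all). The members' median log2 fold change was then -0.06, against 0.02 for all genes. The corrected value is given below for each member whose call it ends, whose direction it turns or whose value it moves by over 1.5 times. On the authors' length-scaled FPKM values (fragment counts scaled by gene length and library depth; limma on log2(FPKM + 0.1)), 16 members were called higher and 15 lower. On that scale the median of all genes was 0.09 and that of the members 0.02, so the split between higher and lower members depends on the scaling.

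**Figure D2:**
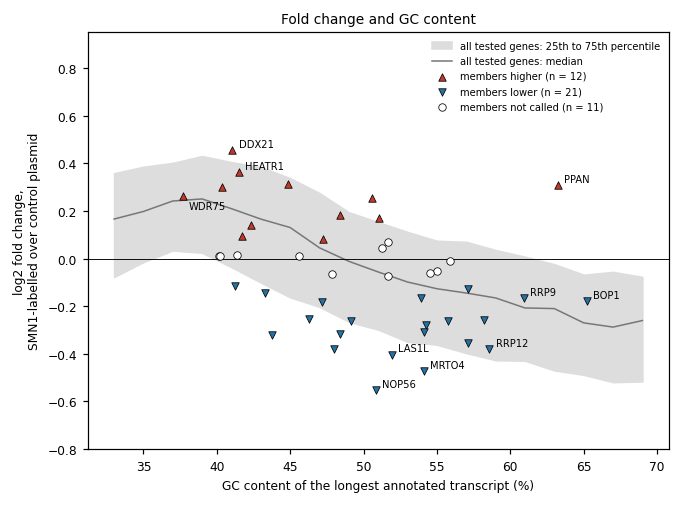
Log2 fold change, SMN1-labelled over control plasmid, against GC content of the longest annotated transcript in percent. Triangles are members called higher (12) or lower (21), open circles the 11 not called, the line is the median of all tested genes and the band their 25th to 75th percentile. Members follow the downward slope of all genes, with NOP56 below the band and PPAN above it.

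The box C/D snoRNP proteins were lower, 3 of 3, and so were the box H/ACA proteins, 4 of 4. Summed over these 7 genes, the level was 1199, 1204 and 1201 CPM in SMN1-labelled libraries, against 1524, 1488 and 1555 CPM in control plasmid libraries. The median log2 fold change of the 7 was -0.32. The log2 fold change was negative for all 7 under each of the 20 alternatives tried, while the number called lower ranged from 4 after the length and GC correction to 7, apart from the rule of 1.5-fold.

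NOP56, a core protein of the box C/D particle, had 231, 220 and 223 CPM in SMN1-labelled libraries, against 330, 327 and 332 CPM in control plasmid libraries. The groups lay far apart relative to their spread, and this was the lowest log2 fold change of the set (-0.55, SE 0.03, adjusted p = 2.08e-12). After the correction it was still -0.55. FBL, the methyltransferase fibrillarin, had 110, 109 and 99.9 CPM in SMN1-labelled libraries, against 128, 124 and 136 CPM in control plasmid libraries. The groups did not overlap (log2 fold change -0.28, SE 0.04, adjusted p = 5.23e-06), but the corrected value was -0.04 (adjusted p = 0.484). NOP58, the partner of NOP56 in the particle, was lower at -0.12 (adjusted p = 0.00617), and its corrected value was -0.22 (adjusted p = 1.97e-05). Its call was lost without SMN1-labelled replicate 2 (adjusted p = 0.0575) and on FPKM, within a range of 1.97e-05 to 0.504 over its alternatives.

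DKC1 encodes dyskerin, the pseudouridine synthase of the H/ACA particle. It had 429, 440 and 438 CPM in SMN1-labelled libraries, against 556, 529 and 544 CPM in control plasmid libraries. Every SMN1-labelled library was below every control plasmid library (log2 fold change -0.32, SE 0.03, adjusted p = 1.72e-08), and the corrected value was the same to 2 decimals. NHP2, a small protein of the same particle, had 217, 225 and 229 CPM in SMN1-labelled libraries, against 281, 274 and 302 CPM in control plasmid libraries. Its groups were also apart (log2 fold change -0.35, SE 0.04, adjusted p = 2.91e-08), and its corrected value was -0.03 (adjusted p = 0.527). NOP10 and GAR1 complete the particle. NOP10 had a log2 fold change of -0.38, or -0.17 after the correction (adjusted p = 0.0251), and GAR1 of -0.18. GAR1 lost its call after the correction (-0.09, adjusted p = 0.0847) and on FPKM.

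Among the abundant nucleolar proteins the directions were mixed. DDX21, an RNA helicase that acts in ribosomal RNA transcription and processing, had 282, 287 and 285 CPM in SMN1-labelled libraries, against 203, 210 and 209 CPM in control plasmid libraries. Its groups were separate by far more than their spread, and this was the highest log2 fold change of the set (0.46, SE 0.03, adjusted p = 4.85e-11). The corrected value was 0.26 (adjusted p = 5.02e-07), and the E-box window of DDX21 is the first shown above.

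NCL, or nucleolin, was the most abundant member. It had 4128, 4180 and 4231 CPM in SMN1-labelled libraries, against 3865, 3878 and 4112 CPM in control plasmid libraries. The groups did not overlap but nearly met (log2 fold change 0.08, SE 0.03, adjusted p = 0.0393). Its call was lost without control plasmid replicate 1 (adjusted p = 0.170) or 2 (0.128) and without SMN1-labelled replicate 2 (0.0896) or 3 (0.110). Upper-quartile factors (0.0992) and a filter at 1 CPM in 3 libraries (0.0792) also ended the call. The corrected value was -0.03, and the adjusted p ranged from 0.00156 to 0.425 over its alternatives. NPM1, the histone and ribosome chaperone nucleophosmin, had 1808, 1858 and 1834 CPM in SMN1-labelled libraries, against 1979, 1997 and 2113 CPM in control plasmid libraries. It was lower without overlap (log2 fold change -0.15, SE 0.03, adjusted p = 0.000613). NPM1 has 45 annotated pseudogenes. With the reads of those listed in the table added (31 rows in all) its log2 fold change was -0.15. The corrected value of NPM1 was -0.25, and its call was lost on FPKM (the adjusted p ranged from 1.10e-06 to 0.199 over its alternatives). NOLC1, which carries snoRNPs to the nucleolus, was not called (log2 fold change -0.07, adjusted p = 0.0802), although it passed with limma-voom (adjusted p = 0.0481) and ranged from 0.0318 to 0.528 over its alternatives.

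Of the RNA polymerase I machinery 1 member was higher, 1 was lower and 3 were not called. POLR1B, the second largest subunit of the enzyme, had 45.4, 45.5 and 49.8 CPM in SMN1-labelled libraries, against 37.2, 39.5 and 36.4 CPM in control plasmid libraries. All SMN1-labelled values were above the control plasmid values (log2 fold change 0.31, SE 0.05, adjusted p = 4.85e-06), and the corrected value was 0.15 (adjusted p = 0.00762). TCOF1 encodes treacle, which links polymerase I to early processing. It had 699, 607 and 628 CPM in SMN1-labelled libraries, against 790, 751 and 781 CPM in control plasmid libraries. It was lower without overlap (log2 fold change -0.26, SE 0.04, adjusted p = 8.09e-06), with SMN1-labelled replicate 1 nearest to the control plasmid libraries. On log2(FPKM + 1) without a filter the TCOF1 adjusted p was 0.0522, the highest over its alternatives, and the lowest was 2.07e-11.

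The largest polymerase subunit POLR1A (log2 fold change 0.07, adjusted p = 0.114), the subunit POLR1C shared with polymerase III (0.01, adjusted p = 0.895) and the polymerase I factor UBTF (-0.05, adjusted p = 0.183) were not called. After the correction POLR1C was at -0.12 (adjusted p = 0.149) and UBTF at 0.00 (adjusted p = 0.992), neither of them called. POLR1A was called higher without SMN1-labelled replicate 3 (adjusted p = 0.0364) and on FPKM, with adjusted p from 0.0155 to 0.318 over its alternatives. POLR1C shares exonic bases on the opposite strand with XPO5 and YIPF3, which held several times its reads. The sources used here do not say whether the counting used strand, so reads of such partners may be mixed.

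Of the 9 small subunit processome members 4 were higher, 2 were lower and 3 were not called. HEATR1 is a large scaffold of its UTP-A subcomplex, which binds the start of the precursor and is also needed for polymerase I transcription. It had 79.8, 82.2 and 80.9 CPM in SMN1-labelled libraries, against 65.1, 62.3 and 61.6 CPM in control plasmid libraries. The groups were apart by several times their spread (log2 fold change 0.36, SE 0.04, adjusted p = 2.43e-08), and the corrected value was 0.12 (adjusted p = 0.0111). WDR43, of the same subcomplex, had 99.3, 109 and 105 CPM in SMN1-labelled libraries, against 81.2, 87.6 and 86.1 CPM in control plasmid libraries. It was higher without overlap (log2 fold change 0.30, SE 0.04, adjusted p = 1.26e-06), and its corrected value was 0.14 (adjusted p = 0.00294).

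UTP4, also a UTP-A protein, went the other way. It had 38.9, 37.5 and 35.8 CPM in SMN1-labelled libraries, against 45.8, 42.8 and 45.4 CPM in control plasmid libraries. All SMN1-labelled values were below the control plasmid values (log2 fold change -0.26, SE 0.05, adjusted p = 4.06e-05). WDR75 brought the UTP-A members to 3 higher and 1 lower (log2 fold change 0.26, adjusted p = 0.00158), but its corrected value was 0.05 (adjusted p = 0.535). The E-box windows of WDR43 and UTP4 printed above therefore belong to members of 1 subcomplex with opposite changes.

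RRP9, a protein of the U3 snoRNP that guides early cleavage, had 70.5, 71.6 and 66.4 CPM in SMN1-labelled libraries, against 78.8, 76.2 and 78.8 CPM in control plasmid libraries. It was lower without overlap (log2 fold change -0.16, SE 0.04, adjusted p = 0.00107). The correction turned its direction (0.19, adjusted p = 1.36e-04), and its call was lost on FPKM (the highest adjusted p over its alternatives was 0.138). UTP20, a large processome scaffold, was higher at 0.14 (adjusted p = 0.00658). Its call was lost without SMN1-labelled replicate 2 (adjusted p = 0.0510), and the corrected value was -0.09 (adjusted p = 0.0786, the highest over its alternatives; the lowest was 0.00228). The scaffold NOP14 (log2 fold change 0.05, adjusted p = 0.257), the RNA acetyltransferase NAT10 (-0.07, adjusted p = 0.0783) and the helicase DDX10 (0.01, adjusted p = 0.847) were not called. NAT10 was called lower without control plasmid replicate 2 (adjusted p = 0.0352, in a range of 0.0343 to 0.739). After the correction DDX10 was lower at -0.25, NOP14 was higher at 0.15 and NAT10 was at -0.05.

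Factors that act late on the 40S subunit were divided evenly, with 2 higher, 2 lower and 1 not called. RRP12, an export factor of pre-ribosomes, had 309, 297 and 306 CPM in SMN1-labelled libraries, against 399, 387 and 401 CPM in control plasmid libraries. The groups were far apart (log2 fold change -0.38, SE 0.03, adjusted p = 1.14e-09), and the corrected value was -0.29. TSR1, a GTPase-like factor of late pre-40S particles, had 278, 277 and 270 CPM in SMN1-labelled libraries, against 242, 240 and 251 CPM in control plasmid libraries. It was higher without overlap (log2 fold change 0.17, SE 0.03, adjusted p = 1.58e-04), and the corrected value was also 0.17. TSR1 shares exonic bases with SGSM2 on the opposite strand.

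The remaining late factors were less stable. LTV1, an assembly factor that must leave the pre-40S particle, had 69.1, 66.9 and 72.2 CPM in SMN1-labelled libraries, against 64.4, 65.5 and 64.8 CPM in control plasmid libraries. It was higher by a narrow margin (log2 fold change 0.09, SE 0.04, adjusted p = 0.0458). The call was lost without control plasmid replicate 1 (adjusted p = 0.127), 2 (0.0689) or 3 (0.0872) and without SMN1-labelled replicate 1 (0.0524) or 3 (0.201). It was also lost after the correction (0.08, adjusted p = 0.0772), with DESeq2 (0.0742), upper-quartile factors (0.0944), the stricter filter (0.0690) and the replicate block (0.0619), and without ribosomal protein and mitochondrial genes (0.0520). With the reads of an overlapping gene on its own strand added, LTV1 was at 0.12 (adjusted p = 0.00879), and the range over all its alternatives was 0.00234 to 0.201. BYSL, or bystin, had 59.7, 56.5 and 52.9 CPM in SMN1-labelled libraries, against 61.4, 59.7 and 63.8 CPM in control plasmid libraries. Its groups met at the edge (log2 fold change -0.13, SE 0.04, adjusted p = 0.0177). The BYSL call was lost without control plasmid replicate 3 (adjusted p = 0.0877) or SMN1-labelled replicate 3 (0.130). It was also lost with DESeq2 (0.0790), without a filter on counts (0.0557) and on FPKM. The corrected value of BYSL was 0.15 (adjusted p = 0.00431, in a range of 0.00249 to 0.553 over its alternatives). NOB1, the nuclease that makes the final cut of 18S RNA, was not called (-0.06, adjusted p = 0.219), and its corrected value was 0.19.

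The 14 large subunit factors were mostly lower, with 8 lower, 3 higher and 3 not called, and a median log2 fold change of -0.17. MRTO4, which holds the place of the stalk protein on pre-60S particles, had 87.0, 85.4 and 87.2 CPM in SMN1-labelled libraries, against 125, 117 and 118 CPM in control plasmid libraries. It was 1.39-fold lower, with groups far apart (log2 fold change -0.47, SE 0.04, adjusted p = 1.96e-10). LAS1L, part of the nuclease complex that cuts the second internal spacer, had 247, 248 and 249 CPM in SMN1-labelled libraries, against 329, 322 and 332 CPM in control plasmid libraries. Its libraries agreed closely within each group (log2 fold change -0.40, SE 0.03, adjusted p = 2.85e-10). The corrected values were -0.27 for MRTO4 and -0.38 for LAS1L.

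GNL2, a GTPase needed for export of the 60S subunit, had a log2 fold change of -0.32, and the correction made it larger (-0.50). The assembly factors NOP16 (-0.31), EBNA1BP2 (-0.26) and FTSJ3 (-0.16) were also lower. Their corrected values were -0.11 for NOP16, -0.21 for EBNA1BP2 and -0.10 for FTSJ3, all still called. FTSJ3, a methyltransferase of precursor RNA, shares exonic bases on the opposite strand with PSMC5, and its call was lost on log2(FPKM + 1) without a filter (adjusted p = 0.0757, the highest over its alternatives; the lowest was 2.12e-06). PES1, BOP1 and WDR12 form 1 complex of 60S assembly. PES1 was lower at -0.26 and BOP1 at -0.18, while WDR12 was not called (0.01, adjusted p = 0.846). After the correction PES1 was at -0.10, BOP1 at 0.08 and WDR12 at -0.25, so the direction turned for BOP1 and WDR12. BOP1 also lost its call on FPKM.

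RRP1B, a nucleolar protein that binds pre-60S particles, had 124, 130 and 125 CPM in SMN1-labelled libraries, against 110, 105 and 103 CPM in control plasmid libraries. It was higher without overlap (log2 fold change 0.25, SE 0.04, adjusted p = 3.35e-06), and the corrected value was 0.24. NIP7, a small factor of early 60S assembly, was higher at 0.18 (adjusted p = 0.000515). The GTPase GNL3, or nucleostemin (log2 fold change 0.01, adjusted p = 0.770), and the RNA methyltransferase NOP2 (-0.01, adjusted p = 0.838) were not called. After the correction GNL3 was at -0.09 and NOP2 at 0.11. NOP2 shares 2550 exonic bases on its own strand with RP5-940J5.10. That gene held 48244 to 60529 reads in SMN1-labelled libraries, against 4868 to 6202 for NOP2. In control plasmid libraries it held 42666 to 44433 reads, against 4371 to 4645 for NOP2. With the reads of both summed, the log2 fold change was 0.0028 (adjusted p = 0.951).

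PPAN, a factor of 60S assembly, shows how the choice of annotated row can set a direction. Its own row held 783, 911 and 651 reads in SMN1-labelled libraries, against 544, 536 and 490 reads in control plasmid libraries. On that row it had 23.4, 21.9 and 19.8 CPM in SMN1-labelled libraries, against 18.1, 17.6 and 16.9 CPM in control plasmid libraries, and was higher (log2 fold change 0.31, SE 0.06, adjusted p = 2.00e-04). The readthrough gene PPAN-P2RY11, which contains its exons on the same strand, held 5607, 6474 and 4835 reads in SMN1-labelled libraries, against 5283, 5184 and 5448 reads in control plasmid libraries. With PPAN, PPAN-P2RY11 and P2RY11 summed, the level was 207, 193 and 183 CPM in SMN1-labelled libraries, against 209, 203 and 220 CPM in control plasmid libraries. The sum overlapped between groups and was lower (log2 fold change -0.12, 95% interval -0.20 to -0.03, adjusted p = 0.0211). The direction of PPAN is therefore uncertain. The corrected value of its own row was 0.62. Over its alternatives the adjusted p ranged from 7.29e-09 to 0.0211.

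**Figure D3:**
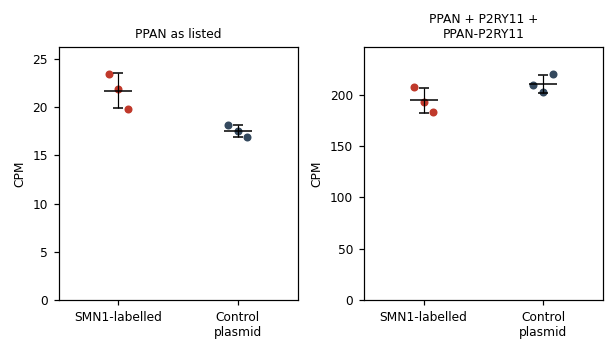
CPM of PPAN as listed (left) and of PPAN, P2RY11 and PPAN-P2RY11 summed (right) in the 3 SMN1-labelled and the 3 control plasmid libraries. Points are libraries, the long line the mean and the bar the SD. The listed row is higher in SMN1-labelled libraries, and the sum is not.

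Across all roles, 18 of the 33 called members (7 higher and 11 lower) were called under each of the 19 alternatives other than the rule of 1.5-fold, with the same direction each time. The higher ones were DDX21, POLR1B, WDR43, HEATR1, TSR1, RRP1B and NIP7. The lower ones were NOP56, DKC1, NOP10, UTP4, RRP12, NOP16, PES1, LAS1L, GNL2, EBNA1BP2 and MRTO4. In the GENCODE annotation used here, 21 members share exonic bases with another listed gene, 4 on the same strand and 18 on the opposite strand. Of the higher ones just named, HEATR1 shares them on the opposite strand with LGALS8, NIP7 with COG8, and TSR1 with SGSM2 and SRR. Of the lower ones, UTP4, RRP12, NOP16, PES1, GNL2, EBNA1BP2 and MRTO4 have opposite-strand partners. Reads of partners on the opposite strand were not summed in any alternative. The annotation behind the deposited counts is not named, so overlaps there may differ.

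**Figure D4:**
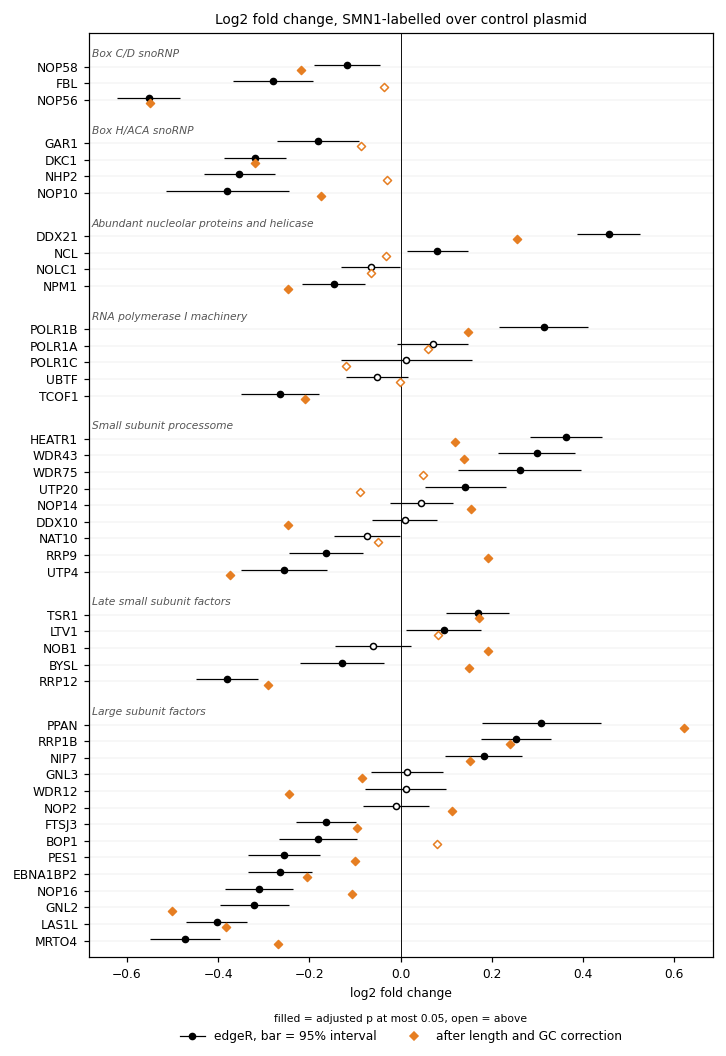
Log2 fold change, SMN1-labelled over control plasmid, of each member by role. Black circles with bars are edgeR estimates with 95% intervals and orange diamonds the values after correction for gene length and GC content. Filled symbols passed an adjusted p of 0.05. NOP56, DKC1 and LAS1L barely move with the correction, whereas FBL and NHP2 move close to zero.

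Levels can be compared between members only per length, here on the authors' FPKM. NCL was highest, at 455 ± 8.0 FPKM in SMN1-labelled and 405 ± 9.3 FPKM in control plasmid libraries (SD, n = 3 each). FTSJ3 came next, with 350 ± 6.5 FPKM in SMN1-labelled and 369 ± 2.3 FPKM in control plasmid libraries. NPM1 and NOLC1 followed in both groups. These 4 neighbours lay further apart than their spread. At the low end stood WDR75, with 3.91 ± 0.27 FPKM in SMN1-labelled and 3.07 ± 0.22 FPKM in control plasmid libraries, and POLR1C, with 2.59 ± 0.14 FPKM in SMN1-labelled and 2.42 ± 0.22 FPKM in control plasmid libraries. The level of POLR1A in control plasmid libraries (3.997 ± 0.08 FPKM) did not stand apart from that of UTP20 (4.02 ± 0.07 FPKM). DDX21 stood at rank 12 of the 44 in SMN1-labelled libraries and at rank 21 in control plasmid libraries.

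**Figure D5:**
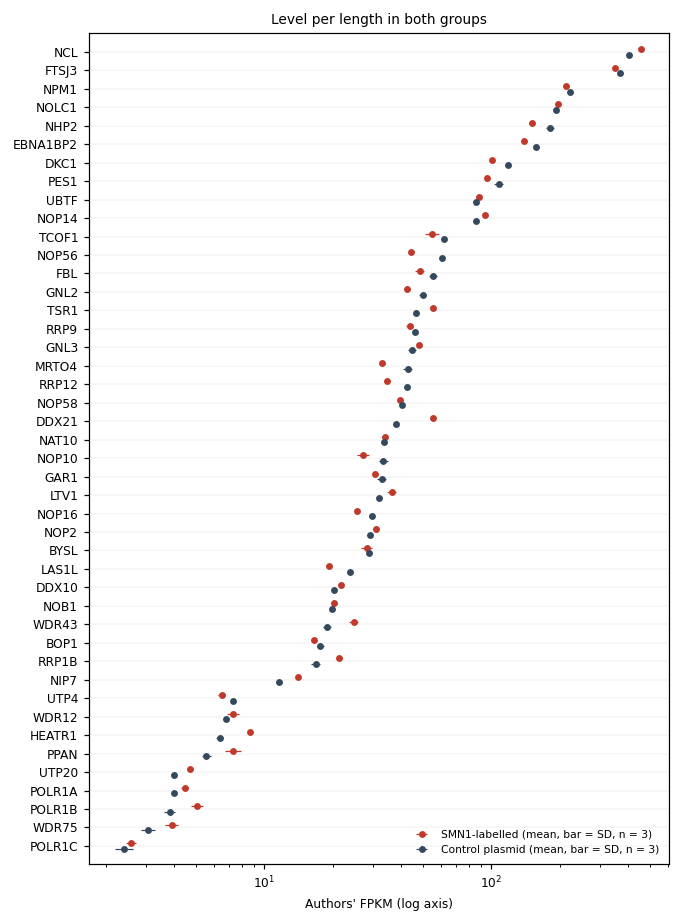
Authors' FPKM of each member on a log axis, ordered by level in control plasmid libraries. Points are means of 3 libraries and bars the SD, red for SMN1-labelled and dark for control plasmid. Levels span from POLR1C near 2.42 to NCL near 405 FPKM in control plasmid libraries.

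A wider list of 149 other ribosome biogenesis genes was all found in the table, and 148 were tested. Of these, 45 were higher (30.4%), 53 lower (35.8%) and 50 not called, with a median log2 fold change of -0.03. Of all genes tested 28.0% were higher and 28.2% lower, so the higher share was near that background. The counts by class, here and in the next paragraph, stand beside the same shares of all genes. After the length and GC correction the split of the wider list was 28 higher and 65 lower, beside 26.0% of all genes higher and 22.8% lower. The share of 1.61% to 1.62% of reads in SMN1-labelled libraries was below the 1.65% to 1.68% in control plasmid libraries, without overlap. Among other polymerase I genes 5 of 11 were higher and 4 lower; the promoter factor subunit TAF1A was at 0.46 and the subunit POLR1G at -0.33. Among other processome and small subunit genes 13 of 41 were higher and 18 lower; the helicase DDX52 was at 0.36 and the methyltransferase partner TRMT112 at -0.54. Among other late small subunit genes 4 of 10 were higher and 2 lower; the kinase RIOK3 was at 0.56 and NOL12 at -0.48. Among other large subunit genes 15 of 51 were higher and 15 lower; MAK16 was at 0.53 and RRS1 at -0.57. These 8 named genes kept their calls after the correction, with values closer to zero: TAF1A was then at 0.40, POLR1G at -0.17, DDX52 at 0.10 and TRMT112 at -0.27. RIOK3 was then at 0.35, NOL12 at -0.27, MAK16 at 0.35 and RRS1 at -0.27.

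The genes that assemble snoRNPs, unlike the snoRNP proteins themselves, were not all lower: 3 of 10 were higher and 3 lower. These shares were near those of all genes tested, 28.0% higher and 28.2% lower. ZNHIT6, a box C/D assembly factor, had 67.8, 72.9 and 70.6 CPM in SMN1-labelled libraries, against 48.5, 47.8 and 50.5 CPM in control plasmid libraries. It was higher without overlap (log2 fold change 0.53, SE 0.04, adjusted p = 1.80e-10). RUVBL2, an ATPase of the assembly machinery, was at -0.41. Of 15 genes of the RNA exosome, which trims precursor ends, 4 were higher and 8 lower. EXOSC5, a core subunit of the exosome, had 13.4, 11.9 and 12.6 CPM in SMN1-labelled libraries, against 21.3, 21.9 and 20.3 CPM in control plasmid libraries. It was 1.68-fold lower without overlap (log2 fold change -0.75, SE 0.06, adjusted p = 6.21e-10), and the exosome nuclease DIS3 was at 0.37. Of 10 proteins of RNase MRP and RNase P, 1 was higher (RPP14, at 0.34) and 3 were lower (POP7 among them, at -0.38). After the correction ZNHIT6 was at 0.28, RUVBL2 at -0.18 and EXOSC5 at -0.38, all still called. The calls of DIS3 (0.11, adjusted p = 0.134), RPP14 (0.13, adjusted p = 0.0823) and POP7 (0.0049, adjusted p = 0.934) were lost, and each of these p-values was the highest over that gene's alternatives.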

How the data were processed

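Stranded mRNA libraries of SH-SY5Y cells were sequenced as paired 150 nt reads, per the labels' protocols. HISAT2, GRCh38 and DESeq2 are named in the submitters' processing notes, without versions. The sources used here name neither a counter nor an annotation, and give no setting for strand or for multiply mapped reads. Deposited read counts are whole numbers for 28862 genes, and the deposited FPKM table, made by the authors, holds length- and depth-scaled values for 28501 genes.

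Counts were tested in R 4.3.3 with edgeR 4.0.16 (default expression filter, TMM factors, quasi-likelihood test, two-sided, Benjamini-Hochberg adjustment over 15829 genes, calls at 0.05). CPM are TMM-scaled. SE was taken as |log2 fold change| divided by the root of F. A count of 0 allows up to 3 reads, or 0.0745 to 0.0988 CPM, counting error only. Alternatives used DESeq2 1.42.0, limma 3.58.1 (voom, or log2(FPKM + 0.1) and log2(FPKM + 1) with genes kept from 0.5 FPKM in 3 libraries, the second also without a filter), other factors and filters (1 CPM in 3 libraries), a replicate block, each library left out, a spline correction for length and GC content (GENCODE 29), removal of ribosomal protein and mitochondrial genes, and a 1.5-fold rule. Summing members with same-strand overlapping genes or pseudogenes was added after seeing the data. A fold change on FPKM is on the log2(value + pseudocount) scale and understates changes of low genes. The procedure was tested on simulated data with changed genes drawn from all genes tested. It recovered 46.9% of genes changed 1.25-fold and 71.4% of those changed 1.5-fold. Those shares are for all genes tested (median control level 10.6 CPM) and not for the more abundant members (137 CPM). For the 11 members not called, the 95% intervals of the log2 fold change lay between -0.15 (NAT10) and 0.16 (POLR1C). A gene not called may therefore still have changed by a small fold.

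The members, the wider list and the markers were chosen with earlier results of these data known. In each role the 2 called members with the smallest p in each direction were given in every library, and from each class of the wider list the called gene with the smallest p in each direction was named. ZNHIT6 and EXOSC5 were picked from these for library values after their values were seen. No 2 libraries were alike within counting error: the chi-square over its degrees of freedom was 2.52 to 4.40 inside groups. Promoter sequences are from RefSeq (GRCh38.p14).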

Additional observations from a re-analysis of the deposited data

How the results depend on the processing

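Between the 2 groups, 12 members were called higher and 21 lower, and leaving out each library in turn gave 10 to 11 higher and 20 to 22 lower. For all genes (4426 higher, 4466 lower) the same gave 3965 to 4335 higher and 4049 to 4346 lower, and for the wider list (45 higher, 53 lower) 40 to 44 higher and 50 to 52 lower. With the replicate number as a block, 11 members were higher and 21 lower; LTV1 was the call lost. Libraries of the same number did not deviate together (correlations 0.003 to 0.0133, and 4 of 6 libraries correlated best with their own number), so the numbers were not taken as pairs. The rule of 1.5-fold left 0 members higher and 0 lower, 683 and 1228 of all genes, and 0 and 4 of the wider list. On FPKM the genes called lower fell in number, to 2963 with log2(FPKM + 0.1), 2965 with log2(FPKM + 1) and 2883 with log2(FPKM + 1) without a filter, where 13 members were lower; with log2(FPKM + 0.1) all genes split into 4956 higher and 2963 lower, and the cause was not tested. After the length and GC correction 28 of the wider list were higher and 65 lower. That correction turned the direction of NCL (-0.033), RRP9 (0.19), UTP20 (-0.090), DDX10 (-0.25), BYSL (0.15), NOB1 (0.19), NOP2 (0.11), BOP1 (0.080), WDR12 (-0.25), GNL3 (-0.085) and POP7 (0.0049), each called before or after it, and of POLR1C (-0.12), called neither before nor after; the cause was not tested. Summing reads of overlapping genes turned PPAN (-0.12). With 3 libraries a group and no record of separate cultures, the tests cover only the spread between these libraries. Reads shared between overlapping genes limit PPAN, NOP2, LTV1 and POLR1C, and may limit other members with such partners.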
